A study of Homo sapiens with 4 samples.

Results

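HIF1A, EPAS1, VEGFA, CA9, ADM, EGLN1, EGLN3, ANGPTL4, NDRG1 and BNIP3 are hypoxia factors and targets, and the 10 genes were followed here in HPTCs stimulated with IL-1β and Empa. The members were the probes that the array files list under these gene names, without control spots. There were 12 such probes, at least 1 for each gene, of 34127 probes under 25992 gene names. Every culture went through 24 h of starvation and 24 h with both IL-1β (10 ng/mL) and the SGLT2 inhibitor Empa (500 nM), so that no group lacks either agent. HK-2 is a proximal tubular line immortalised with papillomavirus genes and RPTEC/TERT1 one immortalised with telomerase, and each was measured on 2 arrays as biological duplicates, written r1 and r2. Arrays of unstimulated cells or of IL-1β without Empa were not analysed here, and the labels name no treatment with low oxygen.

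Hypoxia-inducible factors are pairs of an oxygen-regulated alpha subunit, such as HIF-1α (HIF1A) or HIF-2α (EPAS1), and the stable partner ARNT. When oxygen is present, prolyl hydroxylases of the EGLN family mark the alpha subunit, and the VHL ubiquitin ligase has it degraded, so that much of the control acts on the protein and is not read by an mRNA array. When the alpha subunit is stable, the pair binds short DNA elements with an RCGTG core, where R is A or G, and raises genes of blood vessel growth, pH balance, glucose use and mitochondrial turnover. In the kidney, tubular cells use HIF-1α, and the high oxygen use of proximal tubular transport makes this segment prone to hypoxia.

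The promoters of the genes show how unevenly this core is spread. RefSeq promoter windows on GRCh38.p14, from 250 bases before to 50 after a gene's start, were found for 8 of the 10 genes, and HIF1A has a pair of them. ACGTG or GCGTG on either strand (read on the other strand as CACGT and CACGC) was found in 7 of the 9 windows, each of another gene, against 48.4% of all 35116 windows. HIF1A has it in 1 of its windows. BNIP3, whose product draws autophagy to mitochondria, had 6 matches, a pair of which overlap on opposite strands, and 1.98% of all windows have 5 or more. CA9, the cell-surface carbonic anhydrase IX, ADM, the vasodilator peptide adrenomedullin, and EGLN1, the main HIF prolyl hydroxylase, had 1 each, and EGLN3 had none in its window. The stretches around the matches are printed for BNIP3, as the densest, and for 3 genes with 1 match, with the matches in capitals. They lie at chr10:131982003-131982086 on the minus strand, chr9:35673890-35673927 on the plus strand, chr1:231422288-231422320 on the minus strand and chr11:10304952-10304996 on the plus strand, in the order of the lines.
BNIP3: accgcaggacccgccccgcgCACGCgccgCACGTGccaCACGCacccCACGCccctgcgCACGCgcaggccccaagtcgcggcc
CA9: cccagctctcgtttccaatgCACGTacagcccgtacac
EGLN1: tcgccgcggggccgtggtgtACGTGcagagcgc
ADM: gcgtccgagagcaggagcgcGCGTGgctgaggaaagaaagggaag
A match is a string of letters in the window and no measurement of binding, which these arrays do not hold.

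RNA was labelled with Cy3 and read on 1-colour Agilent arrays, and the level below is log2 of the processed spot signal over the 75th percentile of the array, with a floor at -5.37. This percentile was 393 to 748 over the 4 arrays, and 59.2% to 64.9% of the spots were marked as well above background. The r1 arrays share 1 scan date and the r2 arrays another. The arrays did not group by their labels. Across 20806 probes, Pearson correlations were 0.852 for the HK-2 pair and 0.837 for the RPTEC/TERT1 pair. HK-2 r1 correlated with RPTEC/TERT1 r2 at 0.983, and HK-2 r2 with RPTEC/TERT1 r1 at 0.975. Every cell line named below is therefore the one on the label. Of 10 proximal tubule markers, 6, 5, 3 and 6 were well above background on HK-2 r1, HK-2 r2, RPTEC/TERT1 r1 and RPTEC/TERT1 r2, with summed levels of 1.67, 0.65, 0.44 and 1.94. LRP2 (megalin), GGT1 and SLC5A2 (SGLT2) were detected on all 4 arrays, and CUBN, SLC22A6 and SLC13A1 on none. Of the 14 markers listed for distal tubule, endothelium, leukocytes and fibroblasts or smooth muscle, UMOD, CDH5, PTPRC, CD68 and DES were detected on all 4 arrays. The markers of distal tubule and collecting duct summed to -0.15, -2.04, -2.04 and 0.23 on the arrays in the same order, with SLC12A3, AQP2 and CALB1 detected on none, and those of leukocytes to -0.27, 0.30, 0.88 and -0.35. Endothelial markers summed to -1.40, -2.02, -2.53 and -2.10, higher on both arrays labelled HK-2. Fibroblast and smooth muscle markers summed to -1.26, -1.65, -0.75 and -1.09, higher on both labelled RPTEC/TERT1. Each array read bulk RNA from a culture of a cell line, so the sums are levels of marker mRNA and not counts of cells of these types.

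**Figure D1:**
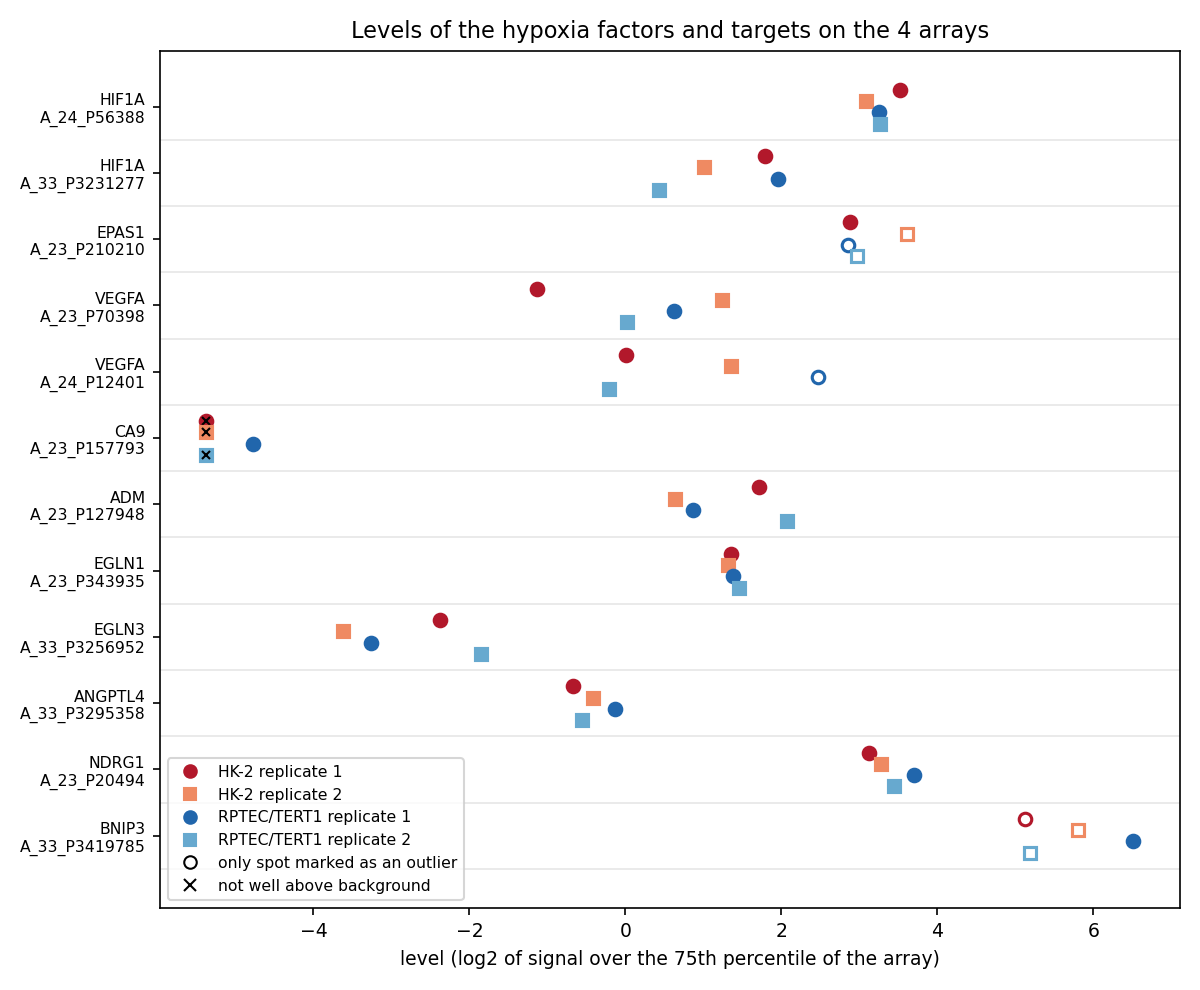
Level of each of the 12 probes on the 4 arrays (x axis, log2 of the processed signal over the 75th percentile of the array). Colours and shapes stand for the labelled arrays, open symbols for probes left without an unmarked spot, and crosses for signals not well above background. VEGFA, ADM, EGLN3, BNIP3 and the HIF1A probe A_33_P3231277 spread over 1.38 to 2.68, whereas EGLN1 spans 0.14. The ends 1.38 (BNIP3) and 2.68 (VEGFA A_24_P12401) include marked spots.

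Of the 12 probes, 11 were well above background on all 4 arrays once spots marked as outliers were kept, and CA9 was the exception. No spot of the 12 probes was saturated. Feature Extraction marked the only spot of EPAS1 and that of BNIP3 as uneven on 3 arrays each, and that of 1 VEGFA probe on 1 array. Such spots were left out of the test, so 9 probes of 7 genes were tested between the labelled cell lines, and values that rest on a marked spot are named as such.

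No hypoxia factor or target passed limma's test between the labels, in which the spread is estimated with help from all probes. With the scaling used here, NDRG1 and EGLN1 differed between the labels by more than their own replicates did, at sizes given with each gene. Both genes lost this after normexp correction, with all spots and without spots of bright background. In the latter, the RPTEC/TERT1 arrays stood at 3.31 and 2.90 for NDRG1 and at 1.19 and 1.29 for EGLN1. The differences between the labels were then -0.34 and -0.0099. NDRG1 also lost it with quantile normalization, where the RPTEC/TERT1 arrays stood at 3.86 and 3.32 and the difference was -0.39. EGLN1 also lost it in the deposited log2 values, where the HK-2 arrays stood at 0.95 and 1.19 and the difference was -0.14. Scaling by the median of detected probes kept it for both. In limma with Benjamini-Hochberg adjustment over 21118 probes, 0 of the 9 probes had an adjusted p under 0.05, as was so for 0% of all probes. At an unadjusted p under 0.05 the count was 0 of 9, against 0.123% of all probes. That percentage is far below the share of 0.05 that independent noise would give. Replicates here differed more than arrays paired across the labels, so limma could call little, and the 0 calls do not show equal levels. The differences, HK-2 minus RPTEC/TERT1, ran from -0.44 to 0.88 with a median size of 0.27, against 0.14 over all probes. The 95% intervals reached 1.19 to 2.65 to either side, so a difference of 2-fold in at least 1 direction was within the interval for each of the 9. Between arrays of the same label, the 8 probes with a value on every array differed by a median of 0.60 for HK-2 and 0.52 for RPTEC/TERT1.

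HIF1A was read by a pair of probes, and these ordered the arrays differently. Probe A_24_P56388 lies at chr14:62214845-62214904 of GRCh37 and was spotted 10 times. Its level was 3.52 on HK-2 r1, 3.09 on HK-2 r2, 3.25 on RPTEC/TERT1 r1 and 3.27 on RPTEC/TERT1 r2. The 4 values lay within 0.43, with an order that changed under all 5 other ways to correct or scale the signal, where the SD of the spots within an array was 0.081 to 0.14. The groups overlapped, with a difference of 0.047 (standard error 0.47, 95% interval -1.21 to 1.30).

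The other HIF1A probe, A_33_P3231277 at chr14:62211472-62211531, is a single spot with a wider range. Its level was 1.79 on HK-2 r1, 1.01 on HK-2 r2, 1.96 on RPTEC/TERT1 r1 and 0.43 on RPTEC/TERT1 r2. Both r1 arrays were above both r2 arrays, which 9.93% of all probes also showed and which is also the order of the scan dates, whose part in this was not tested. The range of 1.53 is a 2.88-fold difference that the 10 spots of A_24_P56388 did not show on the same arrays. The difference between the labelled cell lines was 0.20 (standard error 0.73, 95% interval -1.75 to 2.16). Since the probes disagree, their sequences matter. A_33_P3231277 reads a stretch of the coding sequence:
HIF1A A_33_P3231277: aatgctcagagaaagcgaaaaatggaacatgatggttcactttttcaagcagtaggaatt
Which probe follows the HIF1A mRNA more closely was not tested.

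**Figure D2:**
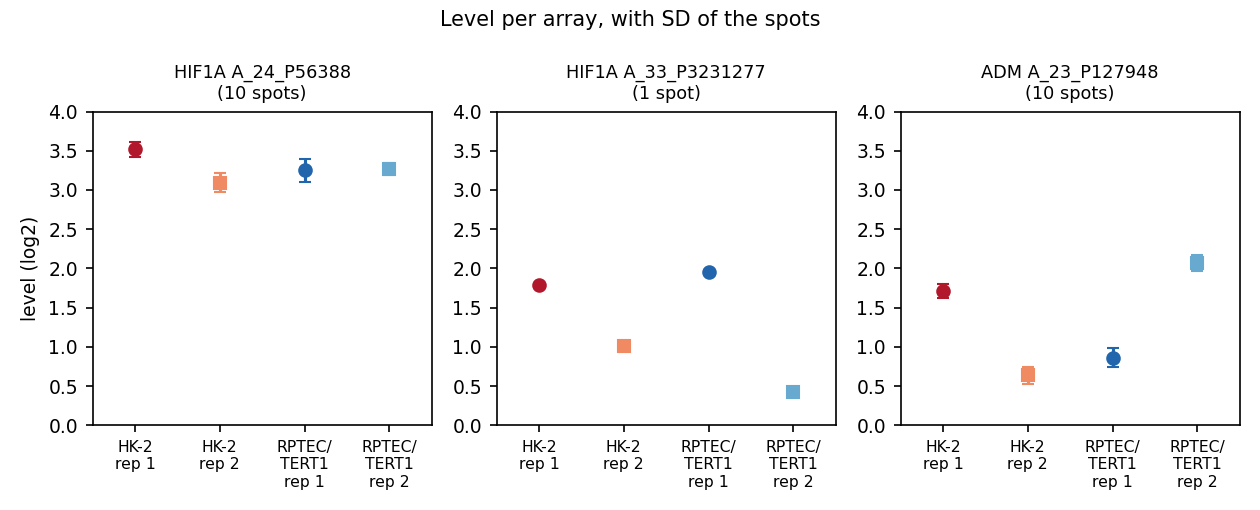
Levels (y axis, log2) on the 4 arrays of the HIF1A probe with 10 spots, of the HIF1A probe with 1 spot and of the ADM probe with 10 spots. Bars are the SD of the spots of an array, 0.081 to 0.14, and the ADM levels on HK-2 r1 and RPTEC/TERT1 r2 (1.71 and 2.07) stand above the others by more than these bars.

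EPAS1 encodes HIF-2α, and its probe A_23_P210210 lies at chr2:46613666-46613725. The level was 2.87 on HK-2 r1, the sole array whose spot was not marked as uneven. With the marked spots kept, it was 3.61 on HK-2 r2, 2.86 on RPTEC/TERT1 r1 and 2.97 on RPTEC/TERT1 r2. HK-2 r2 was thus the highest, and the other 3 arrays lay within 0.11. With these spots kept, the difference between the labelled cell lines was 0.33 (standard error 0.51, 95% interval -1.04 to 1.70, adjusted p = 1 from limma).

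The prolyl hydroxylases that act on the alpha subunits behaved unlike each other across the arrays. EGLN1, read by probe A_23_P343935 at chr1:231502149-231502208, was the most even of the 12 probes at the scaling used here, though not in the deposited log2 values. Its level was 1.35 on HK-2 r1, 1.31 on HK-2 r2, 1.38 on RPTEC/TERT1 r1 and 1.46 on RPTEC/TERT1 r2. Both RPTEC/TERT1 arrays were above both HK-2 arrays, an order that 2.87% of all probes had and that EGLN1 lost under 3 of 5 other ways to correct or scale the signal, and the range of 0.14 is about as wide as the largest SD between the spots of a probe on 1 array, 0.14 for HIF1A. Replicates differed by 0.040 for HK-2 and by -0.075 for RPTEC/TERT1, r1 minus r2. The difference between the labels was -0.084 (standard error 0.45, 95% interval -1.28 to 1.11).

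EGLN3, a prolyl hydroxylase that is itself a HIF target, was dim and uneven. Its probe A_33_P3256952 at chr14:34393422-34393481 was 5.91 to 19.5 times as bright as the lowest signal marked as well above background on the same array. The level was -2.38 on HK-2 r1, -3.62 on HK-2 r2, -3.27 on RPTEC/TERT1 r1 and -1.85 on RPTEC/TERT1 r2. HK-2 r1 and RPTEC/TERT1 r2 were above the other two arrays, and the range of 1.77 is a 3.42-fold difference. The groups overlapped, with a difference of -0.44 (standard error 0.78, 95% interval -2.53 to 1.64).

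VEGFA encodes the main growth factor for blood vessels and had the widest ranges of the members, for A_23_P70398 as tested and for A_24_P12401 when its marked spot was kept. Probe A_23_P70398 matches chr6:43746223-43746634 with its 60 bases spread over 412 bases of the genome, so it crosses at least 1 splice junction of the coding sequence:
VEGFA A_23_P70398: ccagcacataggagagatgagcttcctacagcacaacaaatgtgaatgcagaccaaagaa
Its level was -1.13 on HK-2 r1, 1.24 on HK-2 r2, 0.63 on RPTEC/TERT1 r1 and 0.019 on RPTEC/TERT1 r2. The arrays labelled HK-2 were the dimmest and the brightest of the 4, a 5.17-fold range, and those labelled RPTEC/TERT1 lay between them. The difference of -0.27 (standard error 0.94, 95% interval -2.79 to 2.25) was 0.92 without HK-2 r1 and 0.035 without RPTEC/TERT1 r1.

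The other VEGFA probe, A_24_P12401 at chr6:43753511-43753570, kept this order of pairs. Its level was 0.0049 on HK-2 r1, 1.35 on HK-2 r2 and -0.20 on RPTEC/TERT1 r2. On RPTEC/TERT1 r1 the spot was marked as uneven, and it was the brightest of the 4 at 2.47 when kept, which makes the range 2.68, against 1.55 without it. In both probes HK-2 r2 and RPTEC/TERT1 r1 were above the other two arrays, as in 33.5% of all probes. The summed leukocyte markers were also higher on these 2 arrays, and their part in the levels of VEGFA was not tested. Which of these arrays was the brighter differed between the probes. The difference between the labelled cell lines hangs on the marked spot. It was 0.88 (standard error 0.89, adjusted p = 1 from limma) on the 3 arrays without it and -0.46 (standard error 1.11, adjusted p = 1 from limma) with it.

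ADM, the vasodilator peptide, went the other way from VEGFA. Probe A_23_P127948 at chr11:10328780-10328839 was spotted 10 times and had a level of 1.71 on HK-2 r1, 0.64 on HK-2 r2, 0.86 on RPTEC/TERT1 r1 and 2.07 on RPTEC/TERT1 r2. HK-2 r1 and RPTEC/TERT1 r2 were above the other two arrays, as for EGLN3, and as in 38.1% of all probes. The range of 1.43, a 2.70-fold difference, was wide against an SD between spots of 0.092 to 0.12 within an array. The groups overlapped, with a difference of -0.29 (standard error 0.70, 95% interval -2.18 to 1.60), which was 0.25 without HK-2 r2 and 0.31 without RPTEC/TERT1 r2. The summed proximal tubule markers were also higher on HK-2 r1 and RPTEC/TERT1 r2, as were those of distal tubule and collecting duct, and their part in the levels of ADM and EGLN3 was not tested.

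CA9 was at the limit of detection. Its probe A_23_P157793 matches chr9:35677817-35679204 across 1388 bases, so this probe also crosses at least 1 splice junction:
CA9 A_23_P157793: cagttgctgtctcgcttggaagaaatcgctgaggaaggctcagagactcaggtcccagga
The processed signal was 4.83 on HK-2 r1, 12.0 on HK-2 r2, 17.8 on RPTEC/TERT1 r1 and 4.60 on RPTEC/TERT1 r2. RPTEC/TERT1 r1 was the sole array on which it was marked as well above background, at 3.64% of the 75th percentile and 4.04 times the lowest signal so marked. CA9 was therefore not tested, and 1 of 2 arrays labelled RPTEC/TERT1 and 0 of 2 labelled HK-2 measured it.

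ANGPTL4, a secreted inhibitor of lipoprotein lipase, changed little over the arrays. Probe A_33_P3295358 at chr19:8439197-8439256 had a level of -0.68 on HK-2 r1, -0.41 on HK-2 r2, -0.14 on RPTEC/TERT1 r1 and -0.56 on RPTEC/TERT1 r2. The range was 0.54, and the groups overlapped, with a difference of -0.20 (standard error 0.48, 95% interval -1.47 to 1.08).

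BNIP3, the mitophagy receptor with the 6 promoter matches, was also read by a single spot. Probe A_33_P3419785 at chr10:133781881-133781940 had a level of 6.51 on RPTEC/TERT1 r1, the sole array whose spot was not marked as uneven. With the marked spots kept, it was 5.13 on HK-2 r1, 5.81 on HK-2 r2 and 5.19 on RPTEC/TERT1 r2. HK-2 r2 and RPTEC/TERT1 r1 were above the other two, the order that VEGFA also had. With these spots kept, the difference between the labelled cell lines was -0.38 (standard error 0.67, 95% interval -2.19 to 1.42, adjusted p = 1 from limma).

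**Figure D3:**
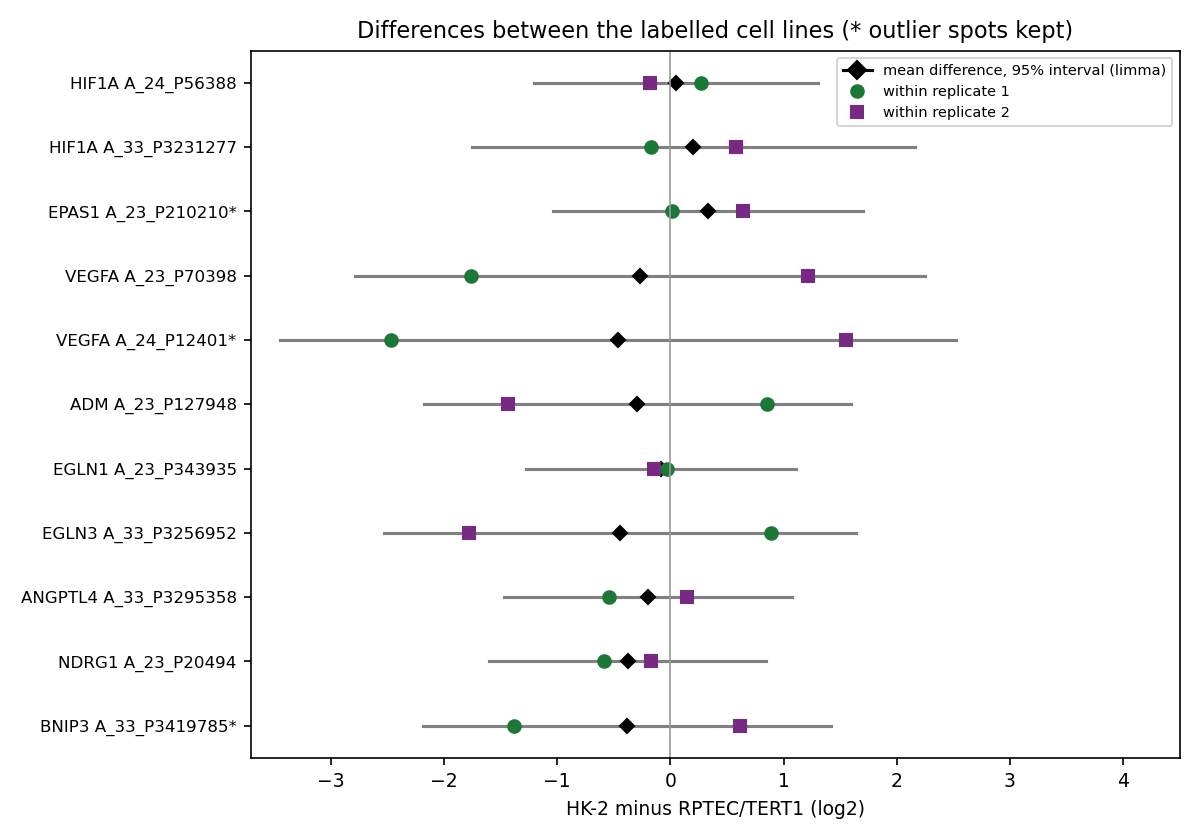
Differences HK-2 minus RPTEC/TERT1 (x axis, log2) for the 11 probes detected on all 4 arrays. Diamonds are the mean differences with 95% intervals from limma, circles the difference between the r1 arrays and squares that between the r2 arrays. Probes with a star include spots marked as outliers, and all 11 intervals include 0.

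Within a scan date, 1 array of each label can be set side by side, without a test. For VEGFA A_23_P70398 the difference was -1.76 for the r1 arrays and 1.22 for the r2 arrays. For ADM it was 0.85 and -1.43, and for EGLN3 0.89 and -1.77. NDRG1, EGLN1 and, with marked spots kept, EPAS1 kept the same sign on both dates. EGLN1 gave -0.026 and -0.14, and EPAS1 0.018 and 0.64.

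NDRG1, a stress-responsive gene of the N-myc downstream-regulated family, was the probe with the clearest order by label. Probe A_23_P20494 at chr8:134249719-134249778 of GRCh37 had a level of 3.12 on HK-2 r1, 3.27 on HK-2 r2, 3.70 on RPTEC/TERT1 r1 and 3.44 on RPTEC/TERT1 r2. Both RPTEC/TERT1 arrays were above both HK-2 arrays, by 0.58 between the r1 arrays and 0.17 between the r2 arrays. Replicates differed by -0.15 for HK-2 and by 0.27 for RPTEC/TERT1, r1 minus r2. The difference between the labels was -0.38 (standard error 0.46, 95% interval -1.60 to 0.85), which was larger than either at this scaling but did not pass limma's test, with an adjusted p of 1.

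Of the 8 probes tested with a value on all 4 arrays, EGLN1 and NDRG1 had both RPTEC/TERT1 arrays higher, as 2.87% of all probes did. EGLN1 lost this order under 3 of 5 other ways to correct or scale the signal. With HK-2 higher there were 0, an order shown by 3.98% of all probes. HIF1A A_33_P3231277 was the only 1 with both r1 arrays higher, which 9.93% of all probes had. With both r2 arrays higher there were 0, against 11.4% of all probes. HIF1A A_24_P56388, ADM and EGLN3 were higher on HK-2 r1 and RPTEC/TERT1 r2, as were 38.1% of all probes. VEGFA A_23_P70398 and ANGPTL4 were higher on HK-2 r2 and RPTEC/TERT1 r1, as were 33.5%. The median range over the arrays was 1.01 for these 8 probes and 1.09 for all 20806 probes. VEGFA and BNIP3 were high where ADM and EGLN3 were low.

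The other genes of the pathway gave no call either. Of 13 HIF regulators, all on the array, 15 probes were tested and 0 were called in either direction, with a median size of the difference of 0.18. ARNT, the partner of the alpha subunits, had levels of -1.90 and -3.18 on the arrays labelled HK-2 and -2.63 and -2.76 on those labelled RPTEC/TERT1. HIF1AN, the asparaginyl hydroxylase that blocks the activity of the alpha subunits, stood at -2.94 and -3.23 against -2.79 and -3.16. VHL stood at 4.53 and 4.40 against 4.90 and 4.39, and EGLN2, the remaining prolyl hydroxylase, at 0.45 and 0.30 against -0.048 and 0.44. In these 4 genes the groups overlapped. Of the 14 regulator probes with a value on all 4 arrays, 5 did separate by label, 3 with RPTEC/TERT1 higher and 2 with HK-2 higher, where 2.87% and 3.98% of all probes did so. These 5, named here after their values were seen, were a pair of HIF3A probes and RBX1 with RPTEC/TERT1 higher, and CUL2 and CREBBP with HK-2 higher. HIF3A encodes a further alpha subunit, and its probe A_33_P3338152 had the largest difference of the 5, with levels of 4.72 and 3.95 on the arrays labelled HK-2 and 5.57 and 5.00 on those labelled RPTEC/TERT1. Its difference of -0.95 (standard error 0.55) had an adjusted p of 1 in limma. The HIF3A probes disagreed widely in level. A_23_P142187 stood at -3.08 and -3.22 against -2.31 and -2.74, and A_23_P338534 was well above background on 1 array. The order of the 5 probes was not recomputed under other scalings.

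Of 40 further HIF targets, 46 probes of 37 genes were tested and 0 were called in either direction. Of the 44 with a value on all 4 arrays, 21 were higher on HK-2 r2 and RPTEC/TERT1 r1 and 14 on HK-2 r1 and RPTEC/TERT1 r2, where all probes had 33.5% and 38.1%. The 6 targets with the widest range, chosen for that range, were DDIT4, PPP1R3C, AK4, HILPDA, HK2 (hexokinase 2) and MXI1. DDIT4, an inhibitor of mTORC1, had a level of 0.79 on HK-2 r1, 5.00 on HK-2 r2, 5.41 on RPTEC/TERT1 r1 and 1.71 on RPTEC/TERT1 r2, a 24.5-fold range. HILPDA, a lipid droplet protein, stood at 1.48, 3.74, 3.83 and 2.37 on the same arrays, and hexokinase 2, the first enzyme of glycolysis, at 0.25, 1.40, 2.01 and 0.067. PPP1R3C, a glycogen-targeting subunit of protein phosphatase 1, stood at -1.96, 0.86, 0.39 and -1.85, and AK4, a mitochondrial adenylate kinase, at -1.26, 1.16, 1.44 and -1.37. The probes quoted for these 5 genes shared the order of VEGFA and BNIP3. Another hexokinase 2 probe, A_33_P3214670, was at the floor on all 4 arrays. Another AK4 probe, A_32_P108655, had a value on HK-2 r1 alone, 2.66. MXI1, a MYC antagonist, was read by several probes that disagreed. Its probe of widest range, A_33_P3383029, stood at -1.41, 0.27, -0.79 and 0.52, so that the r2 arrays were the higher, whereas A_23_P161399, also detected on all 4 arrays, stood at 0.80, 1.31, 1.25 and 1.08, in the order of VEGFA.

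**Figure D4:**
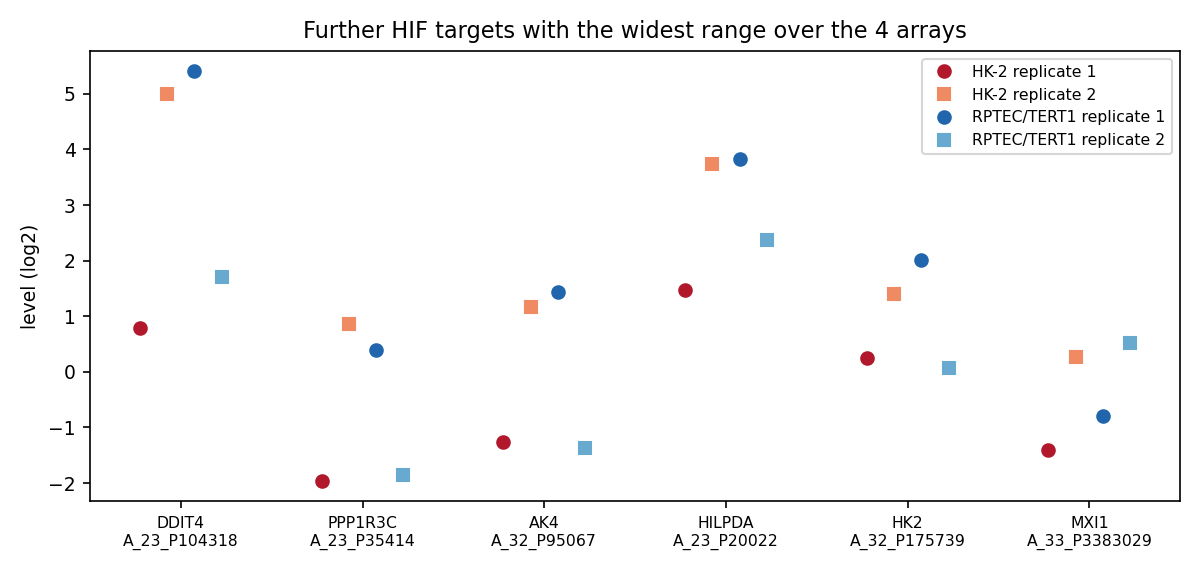
Levels (y axis, log2) of the 6 further HIF targets with the widest range, on the 4 arrays. For DDIT4, PPP1R3C, AK4, HILPDA and HK2 (hexokinase 2) the arrays HK-2 r2 and RPTEC/TERT1 r1 lie above the other two, and the MXI1 probe shown, A_33_P3383029, is the exception.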

How the data were processed

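The authors deposited 1 file per array of spot intensities, which Agilent Feature Extraction 9.5.3.1 wrote with background subtracted and trends across the array removed, not scaled between arrays. A second deposited set holds a log2 value per spot. Its processing was not stated in the methods or labels used here. Its medians were 8.33, 7.14, 6.75 and 6.72, so the values were not brought to a common median. Whether the values were scaled in another way stays unknown. They served as an alternative.

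Control and outlier spots were dropped, signals divided by the array's 75th percentile, floored at the highest of the arrays' lowest scaled signals well above background (a level of -5.37) and taken to log2, and the spots of a probe were averaged. A probe entered the test if 2 or more of its 4 signals were well above background. Testing was done with limma 3.58.1 (lmFit and eBayes, R 4.3.3), two-sided, with Benjamini-Hochberg adjustment over 21118 probes at 0.05. The test was checked on simulated data with independent noise, which lack the pairing of these arrays across the labels. Alternatives covered background correction, scaling, filters, marked spots, gene means, a replicate block and leaving out each array. The number of arrays limits the precision, and so does their pairing across the labels. Over 20806 probes, replicates differed by a median of 0.69 for HK-2 and 0.83 for RPTEC/TERT1. HK-2 r1 differed from RPTEC/TERT1 r2 by 0.23, and HK-2 r2 from RPTEC/TERT1 r1 by 0.32. The r1 arrays differed by 0.73 and the r2 arrays by 0.70. Limma takes its error from the replicates, so the main split among the arrays enters that error and widens the intervals.

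Members and lists were chosen with earlier results of these data known. All members were named, with ARNT, EGLN2, HIF1AN, VHL and the 6 further targets of widest range. The transcripts of all 12 probes were found in RefSeq under the same symbol. Promoter sequences are from RefSeq. Groups and replicate numbers came from the labels. Arrays with the same number deviated from their group means with a correlation of -0.795 across probes. Each array had its own slide.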

Additional observations from a re-analysis of the deposited data

Results flagged for a closer look

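The difference between the labelled cell lines ran in opposite directions on the 2 scan dates for 8 of the 11 probes detected on all 4 arrays. Such directions were common on the whole array. HK-2 r1 and RPTEC/TERT1 r2 were above the other two arrays in 38.1% of all probes, and below them in 33.5%. Either order gives opposite directions on the 2 dates, so the count is not particular to the members. Other orders can give them too, as for HIF1A A_33_P3231277, and the full share over all probes was not computed. Each date holds 1 array per label, so the contrast of the dates was not tested. The difference between the r1 arrays less that between the r2 arrays was -2.98 for VEGFA A_23_P70398 and -4.02 for VEGFA A_24_P12401 with its marked spot kept. It was 2.28 for ADM, 2.66 for EGLN3 and -2.00 for BNIP3 with marked spots kept. It was smaller for HIF1A A_24_P56388 (0.45), HIF1A A_33_P3231277 (-0.75) and ANGPTL4 (-0.68).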

How the results depend on the processing

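Limma called 0 of the member probes, 0 of the pathway lists and 0 of all probes under each alternative run, where 5 to 309 of all probes had an unadjusted p under 0.05. Chosen after seeing the data were the crossed block, normexp without bright background and, for EPAS1 and BNIP3, keeping marked spots throughout. With the replicate block 0 probes were called, and the block changed no call. With HK-2 r1 paired with RPTEC/TERT1 r2 and the others likewise, the count of calls was 0, with 192 probes at an unadjusted p under 0.05.

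The uncalled differences had no stable sign, apart from those of EGLN1 and NDRG1. After normexp correction they turned to -0.41 for HIF1A A_24_P56388, -0.20 for HIF1A A_33_P3231277, -0.19 for EPAS1, 0.086 for VEGFA A_23_P70398, 0.41 for EGLN3 and 0.098 for ANGPTL4. The deposited values turned HIF1A A_24_P56388 to -0.051 and EGLN3 to 0.063. These settings moved the median difference of all probes from 0.016 to 0.36 and 0.19. Without the 8 spots of bright local background, all on HK-2 r1, normexp turned none. VEGFA A_24_P12401, 0.88, was -0.46 with its marked spot and -0.27 as a gene mean. With 1 array left out the differences were -0.17 to 0.26 and -0.56 to 0.97 for the HIF1A probes, -0.038 to 0.70 for EPAS1, -1.45 to 0.92 for VEGFA A_23_P70398, -0.89 to 0.31 for ADM, -1.15 to 0.27 for EGLN3, -0.41 to 0.016 for ANGPTL4 and -1.04 to 0.28 for BNIP3. A label with 1 array left was assumed to vary like the other.

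The order of the arrays given for VEGFA, EGLN3, NDRG1 and BNIP3 held under all 5 other ways to correct or scale the signal, and that of ADM under 4, other than normexp with all spots. That of HIF1A A_24_P56388 changed under all 5, that of EGLN1 under 3, that of ANGPTL4 under 2, that of HIF1A A_33_P3231277 and of EPAS1 under 1. Signal over background limits CA9 and EGLN3.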
